A study of Mus musculus with 4 samples.

Results

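Sall1, Sall3, Mef2a, Mef2c, Maf, Irf8, Spi1 and Runx1 are 8 genes for transcription factors that define microglia and other macrophages. They were taken by symbol from the gene list of the series, in which each had 1 row, so they are 8 of 32227 counted genes. Their RNA was followed in CD11b-selected cells of the cortex of wild-type (WT) mice on postnatal day 15, in 2 libraries labelled Astrocyte Hevin OE and 2 labelled Astrocyte mCherry OE. Mice of both groups had received an adeno-associated virus in the cortex at P0 or P1. Its GfaABC1D promoter drives expression in astrocytes, so the genes carried, Hevin or the control protein mCherry, were not meant to be expressed in the cells that were sequenced. CD11b is an integrin subunit of microglia, macrophages, monocytes and neutrophils. Cells bearing it were held back on magnetic columns after perfusion and dissociation with actinomycin D, triptolide and anisomycin, which stop transcription and translation. RNA molecules were counted by unique molecular identifiers (UMIs) with PIPseq v4.0PLUS. Levels are given as CPM, a gene's UMIs over all UMIs of the summed cells, scaled as counts per 1e6. The number of mice behind each library is not given, so the spread between 2 libraries of a group may be technical.

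Microglia settle in the brain in embryonic life and are kept distinct from other macrophages by transcription factors that act together on shared enhancers. Spi1 encodes PU.1, the ETS factor on which the myeloid lineage depends. Runx1 and Irf8 act with it, Runx1 in blood formation and in early microglia and Irf8 in the maturation of microglia and in interferon responses. Mef2a and Mef2c encode MADS-box factors whose sites lie in many microglial enhancers, and Maf encodes c-MAF, a leucine-zipper factor of tissue macrophages. Sall1 encodes a zinc-finger repressor that, among resident macrophages of the mouse, is a hallmark of microglia. Sall3 is a close relative of Sall1 and is also made by astrocytes.

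RefSeq promoter sequences on GRCm38.p6 were at hand for 5 of the 8 genes, Sall1, Mef2a, Mef2c, Irf8 and Runx1. A window of 280 bases, 250 before the annotated start and 30 from it on, was searched on both strands for letters of macrophage regulatory sites. These were the MEF2 site of 10 bases that stands in capitals at the start of Mef2a below, GAGGAA for PU.1, TGTGGT for RUNX, TGCTGA for MAF and TTCNNNGAA, the gamma-activated site of interferon responses. The 3 windows printed belong to the gene that differed most between cell classes among those with a sequence (Sall1), to one with a small difference (Mef2a) and to one with none called between Apoe-high cells and microglia (Irf8). Each runs 5′ to 3′ and capitals mark a match.
Sall1 promoter, chr8:89044133-89044412, minus strand: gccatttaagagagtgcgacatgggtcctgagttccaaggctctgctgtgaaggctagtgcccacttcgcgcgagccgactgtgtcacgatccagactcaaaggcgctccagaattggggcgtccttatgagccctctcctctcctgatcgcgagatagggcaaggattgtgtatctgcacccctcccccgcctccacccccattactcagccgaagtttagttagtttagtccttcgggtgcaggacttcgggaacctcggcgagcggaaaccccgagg
Mef2a promoter, chr7:67372829-67373108, minus strand: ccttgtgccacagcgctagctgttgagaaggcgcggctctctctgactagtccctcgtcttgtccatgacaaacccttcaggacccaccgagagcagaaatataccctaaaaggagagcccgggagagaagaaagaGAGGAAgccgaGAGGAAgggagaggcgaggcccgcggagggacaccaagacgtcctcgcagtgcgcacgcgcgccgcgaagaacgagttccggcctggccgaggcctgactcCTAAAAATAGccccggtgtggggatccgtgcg
Irf8 promoter, chr8:120736108-120736387, plus strand: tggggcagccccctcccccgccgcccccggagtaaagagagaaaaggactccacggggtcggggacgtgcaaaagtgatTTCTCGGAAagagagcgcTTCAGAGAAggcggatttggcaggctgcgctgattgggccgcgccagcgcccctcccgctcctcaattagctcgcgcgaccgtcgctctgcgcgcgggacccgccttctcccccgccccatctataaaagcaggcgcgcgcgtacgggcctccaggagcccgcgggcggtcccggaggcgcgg
The capitals in Mef2a are GAGGAA, with first bases 114 and 103 before the start, and the MEF2 site, which begins 2 bases before the start. The MEF2 letters are present in 35 of 32851 windows of this length (0.107%), so they are rare, whereas GAGGAA is present in 26.0%. The capitals in Irf8 are TTCNNNGAA, with first bases 171 and 153 before the start, a match found in 7.83% of windows. TGTGGT is present in 15.6% and TGCTGA in 18.2% of windows. Sall1 has 3 annotated starts and no match at any of them, which says only that these letters are not in these windows. No matches overlapped in the printed windows, and a match is a description of letters, not a site of binding.

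On mm10 the genes lie at chr8:89027235-89044162 (minus strand, ENSMUSG00000031665) for Sall1, chr18:80966376-80986771 (minus strand, ENSMUSG00000024565) for Sall3, chr7:67231163-67372858 (minus strand, ENSMUSG00000030557) for Mef2a and chr13:83504034-83667080 (plus strand, ENSMUSG00000005583) for Mef2c. Maf lies at chr8:115682942-115707794 (minus strand, ENSMUSG00000055435), Irf8 at chr8:120736358-120756694 (plus strand, ENSMUSG00000041515), Spi1 at chr2:91082390-91115756 (plus strand, ENSMUSG00000002111) and Runx1 at chr16:92601466-92826149 (minus strand, ENSMUSG00000022952). Opposite-strand genes overlap 3 of them: Lysmd4 overlaps Mef2a and held UMIs equal to 2.15% of those of Mef2a, Gm15655 overlaps Maf with 0.201%, and Gm26626 overlaps Runx1 with 0.0468%. The sources used here do not state whether counting used strand.

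The Hevin libraries held 55629684 and 52707417 UMIs and the mCherry libraries 67832685 and 49781430, and 19653 and 13036 cells of Hevin libraries and 17833 and 10849 of mCherry libraries were kept. The median kept cell had 2329 and 3494 UMIs in Hevin libraries and 3350 and 4037 UMIs in mCherry libraries. Pairs of libraries shared between 1 and 7 barcodes. The libraries differed in sex: Xist, which is expressed in female cells, stood at 1.19 and 1210.4 CPM in Hevin libraries and at 539 and 1045.8 CPM in mCherry libraries, and the Y-linked Uty at 42.8 and 1.08 CPM and at 22.9 and 0.846 CPM. By Xist and Uty, Hevin replicate 1 held male cells, both replicates numbered 2 almost only female cells, and mCherry replicate 1 cells of both sexes. Ddx3y, also Y-linked, stood at 131 and 54.7 CPM in Hevin libraries and at 82.2 and 42.5 CPM in mCherry libraries. It was thus less low than Uty in the replicates numbered 2, and the reason was not tested. Hevin replicate 1 also had the fewest UMIs per cell, and values are given per library for that reason. Sparcl1, which encodes Hevin, stood at 86.4 and 78.4 CPM in Hevin libraries and at 123 and 91.4 CPM in mCherry libraries. The astrocytes meant to carry the virus are mostly removed by the selection, so this does not check the labels.

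Cells were placed in classes by marker gates. A gate counts the UMIs of a short marker list per 10000 UMIs of the cell, and none of the 8 factors is a gate gene. Microglia passed the gate of P2ry12, Tmem119, Siglech, P2ry13 and Slc2a5 with fewer than 150 Apoe UMIs per 10000. Border macrophages (the macrophages of meninges and vessels) passed that of Mrc1, Cd163, F13a1, Lyve1 and Cbr2. Apoe-high cells had at least 150 Apoe UMIs per 10000 and a UMI of Ms4a7 but missed the microglial, border and monocyte (Ccr2, Plac8 and Ly6c2) gates. A cell that passed the microglial gate and also had at least 150 Apoe UMIs per 10000 is called joint here. Microglia and joint cells had to miss the border gate, and border macrophages the microglial gate. All these classes also had to miss the endothelial, neutrophil and astrocyte gates. Contrasts between them therefore include differences that the gates chose. Apoe-high cells numbered 7549 and 4562 in Hevin libraries (38.4% and 35.0% of kept cells) and 26 and 18 in mCherry libraries (0.146% and 0.166%), so they were nearly all from Hevin libraries. Joint cells numbered 900 and 514 in Hevin libraries and 30 and 14 in mCherry libraries. Border macrophages numbered 1379 and 960 against 1215 and 798, and microglia 6779 and 5891 against 15522 and 9422. The names of microglia and border macrophages held on Olfml3 and Clec10a, which no gate used. Most other check genes are not reported here, so the endothelial, monocyte and astrocyte names rest on their gates. Olfml3, a secreted protein made by microglia, stood at 358 and 279 CPM in border-macrophage-gated cells and at 2154 and 2214 CPM in microglia-gated cells of the Hevin libraries, and Clec10a, a lectin of border macrophages, at 785 and 1075 CPM in border-macrophage-gated cells and at 15.9 and 12 CPM in microglia-gated cells. Apoe-high cells carried 856 and 848 CPM of Olfml3 and 15.6 and 12.6 CPM of Clec10a and are called by their gate, with no cell type name. Of their monocyte check genes, Chil3 and Vcan stood at no more than 1.01 CPM. The other monocyte check genes are not reported here, so these values do not settle whether Apoe-high cells carry monocyte markers.

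Sall1 and Sall3 set microglia apart from the other myeloid classes, and both were low in Apoe-high cells. Sall1 stood at 22.1 and 21.8 CPM in Apoe-high cells of the Hevin libraries, at 26.3 and 23.2 CPM in their border macrophages and at 227 and 292 CPM in their microglia. The 26 Apoe-high cells of mCherry replicate 1 held 6 UMIs of Sall1 (48.4 CPM), while mCherry border macrophages stood at 55.5 and 49.0 CPM and mCherry microglia at 295 and 334 CPM. Every microglial value lay above every value of the other classes, and the Apoe-high values of the Hevin libraries lay just below those of border macrophages. Endothelial-gated cells, which should lack the gene, stood at 15.6 and 12.1 CPM in Hevin libraries and at 48.8 and 39.1 CPM in mCherry libraries, and monocyte-gated cells at 27.2 and 26.5 CPM and 51.0 and 52.6 CPM. Astrocyte-gated cells stood between, at 70.6 and 58.5 CPM in Hevin and 96.2 and 128 CPM in mCherry libraries.

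Within Hevin libraries Sall1 was 10.9-fold lower in Apoe-high cells than in microglia (log2 fold change -3.44 ± 0.10, adjusted p = 8.73e-14, edgeR quasi-likelihood test on summed counts with the library as a block, Benjamini-Hochberg adjustment over all genes). The log2 fold change stayed between -3.55 and -3.25 under every alternative tried. In this comparison 39.5% of 14832 tested genes were called, so a call by itself is common, and of the 8 factors 1 was higher, 3 were lower and 4 were not called. Of the same genes 5859 were called, 3112 higher and 2747 lower, a split that became 2401 higher and 3921 lower when scaled by total counts only. The summed level in Apoe-high cells was 1.42 and 1.81 times that of endothelial-gated cells, the class that should lack the gene. After each cell was thinned to 1000 UMIs, 2.30% and 2.72% of Apoe-high cells and 19.6% and 24.7% of microglia of the Hevin libraries had a Sall1 UMI, against 1.04% and 1.32% of endothelial-gated cells, whose exact 95% intervals were 0.215% to 3.01% and 0.16% to 4.67%. The Apoe-high shares lay above the endothelial shares and inside their intervals, and the part of free RNA in them was not tested. Without thinning the shares were 6.86% and 8.40% in Apoe-high cells at median depths of 2909 and 3685 UMIs, 37.5% and 60.1% in microglia at 2069 and 3310 UMIs, and 7.90% and 12.5% in endothelial-gated cells at 3744 and 5944 UMIs. Thinning left out 336 kept cells of Hevin replicate 1 that had fewer UMIs than that, and 0 elsewhere.

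The ratio of Sall1 to P2ry12, the microglial ADP receptor that helped define the gate, differed between the classes. Per 1000 UMIs of P2ry12, Apoe-high cells of the Hevin libraries held 25.1 and 24.1 UMIs of Sall1, border macrophages 36.3 and 35.5 and microglia 53.4 and 61.7. Endothelial-gated cells held 44.1 and 48.1 and monocyte-gated cells 68.6 and 61.4, so the Apoe-high value was the lowest of the classes named so far. Each class was chosen for a high or a low sum of the list that holds P2ry12, so the ratios and their order depend in part on that choice. Joint cells held 22.4 and 33.8, below the Apoe-high value in Hevin replicate 1 and above it in Hevin replicate 2. The few Apoe-high cells of mCherry replicate 1 held 45.1, from 6 UMIs of Sall1. In mCherry libraries microglia held 54.7 and 61.1, close to the Hevin microglia of the same replicate number.

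Sall3 was likewise high in microglia and low in the other myeloid cells. It stood at 5.36 and 4.87 CPM in Apoe-high cells, at 7.11 and 2.55 CPM in border macrophages and at 71.9 and 85.8 CPM in microglia of the Hevin libraries, 14.2-fold lower in Apoe-high cells than in microglia (log2 fold change -3.82 ± 0.13, adjusted p = 4.71e-13). The endothelial level in these libraries was 3.90 and 3.02 CPM, so the Apoe-high values were 1.38 and 1.61 times the endothelial ones. Astrocyte-gated cells, no more than 74 in a library, held 124 and 53.2 CPM of Sall3 in Hevin libraries and 132 and 52.6 CPM in mCherry libraries, more than microglia in both replicates numbered 1 and less in both numbered 2. Of the astrocyte markers, Gjb6, a connexin, stood at 2.10 and 0.995 CPM in Apoe-high cells and at 1.77 and 0.47 CPM in microglia of the Hevin libraries, and its part in the Sall3 level was not tested. Against border macrophages, neither gene was called in Apoe-high cells (log2 fold change 0.06 ± 0.16, adjusted p = 0.792 for Sall1 and 0.34 ± 0.33, adjusted p = 0.466 for Sall3), a comparison chosen after the data were seen in which 39.5% of genes were called, 19% higher and 20.5% lower. Of the 8 factors, 3 were higher there, 2 lower and 3 not called, and scaling by total counts only turned the split of all genes from 2814 higher and 3041 lower to 1519 and 4962, with a shift of the median gene by -0.219.

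**Figure D1:**
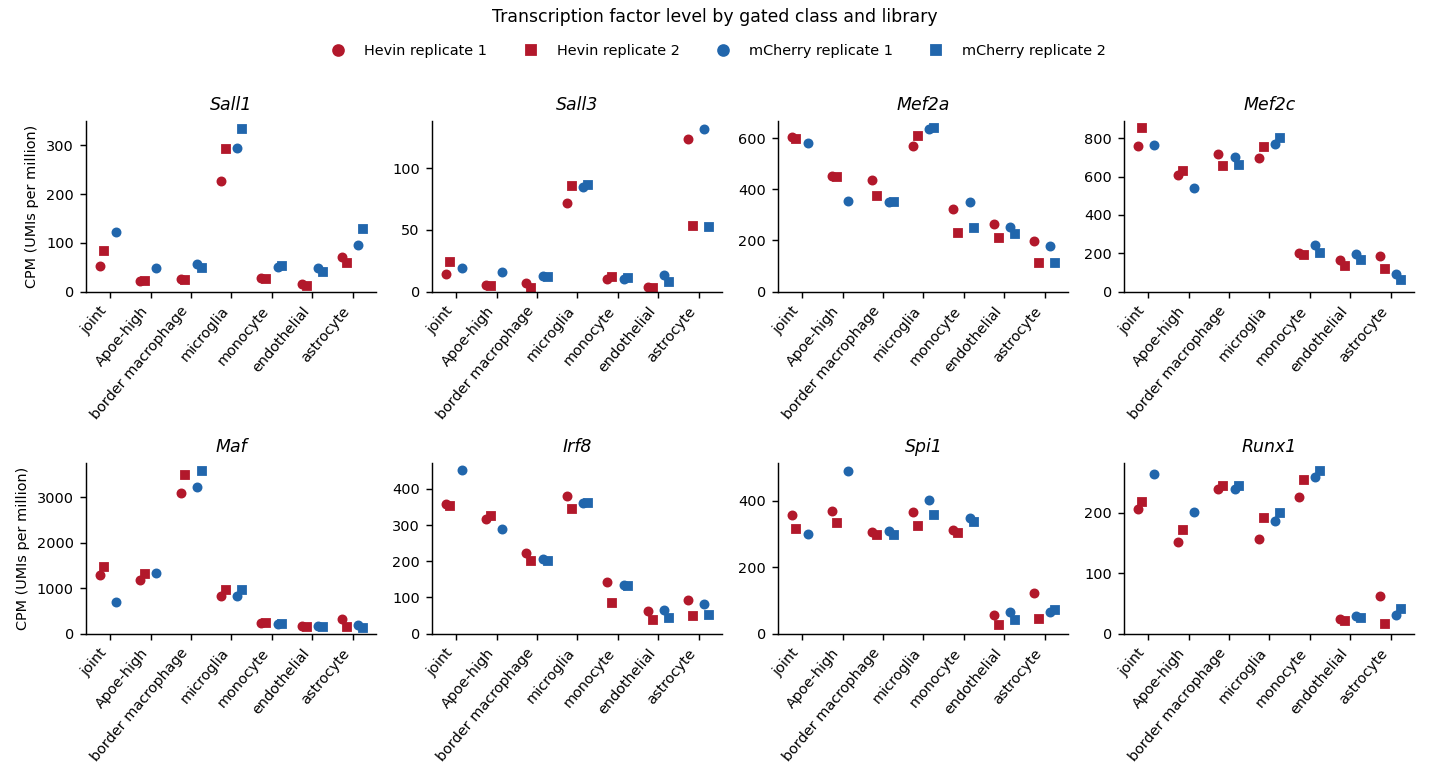
Level of the 8 factors in CPM (vertical axis, linear, from 0; each panel has its own scale) in 7 gated classes, with 1 point per library and class of at least 20 cells. Sall1 and Sall3 are high in microglia and low in Apoe-high cells and border macrophages, and Maf is highest in border macrophages. Spi1 lies between 296 and 492 CPM in the myeloid classes and was called lower in border macrophages than in microglia.

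Maf was highest in border macrophages, and in the Hevin libraries it was higher in Apoe-high cells than in microglia. It stood at 1178 and 1313 CPM in Apoe-high cells, at 3087 and 3488 CPM in border macrophages and at 827 and 964 CPM in microglia of the Hevin libraries. The mCherry border macrophages stood at 3218 and 3582 CPM and the mCherry microglia at 829 and 968 CPM, so the classes were ordered alike in both groups, with no overlap between border macrophages and the rest. Maf was 1.49-fold higher in Apoe-high cells than in microglia (log2 fold change 0.58 ± 0.04, adjusted p = 9.49e-09) and 2.27-fold lower than in border macrophages (-1.18 ± 0.04, adjusted p = 2.3e-12). Between border macrophages and microglia over all 4 libraries it was 3.33-fold higher in border macrophages (1.74 ± 0.04, adjusted p = 2.48e-10). Monocyte-gated cells, at 232 and 222 CPM in Hevin libraries and 205 and 199.6 CPM in mCherry libraries, lay near the endothelial levels of 168 and 139 CPM in Hevin and 162 and 137 CPM in mCherry libraries. After thinning, 66.4% and 70.4% of Apoe-high cells, 88.8% and 92.0% of border macrophages and 54.5% and 58.3% of microglia of the Hevin libraries had a UMI, which is the order of the levels.

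The MEF2 factors were present in every macrophage class. Mef2a stood at 451 and 449.9 CPM in Apoe-high cells, at 436 and 376 CPM in border macrophages and at 571 and 608 CPM in microglia of the Hevin libraries. The classes did not overlap, and Mef2a was lower in Apoe-high cells than in microglia by a small step (log2 fold change -0.29 ± 0.06, adjusted p = 0.000788). Against border macrophages it was higher (0.37 ± 0.06, adjusted p = 0.000132), a call lost when scaled by total counts only (0.15, adjusted p = 0.0745) and with looser gates (0.14, adjusted p = 0.0716). Endothelial-gated cells held 264 and 211 CPM, and MEF2A is known to be made outside the myeloid lineage as well. Mef2c stood at 609 and 631 CPM in Apoe-high cells, at 718 and 657 CPM in border macrophages and at 695 and 753 CPM in microglia of these libraries, so border macrophages and microglia overlapped and Apoe-high cells lay a little below both in CPM. Against border macrophages Mef2c was not called, and the scaled fit had the opposite sign to the CPM (0.07 ± 0.06, adjusted p = 0.411). It was not called between Apoe-high cells and microglia (-0.12 ± 0.06, adjusted p = 0.104), though 4 of 10 alternatives called it lower, with log2 fold changes between -0.23 and -0.18. Monocyte-gated cells held 200.4 and 189.5 CPM in Hevin libraries and 243 and 199.6 CPM in mCherry libraries, below every value of the resident macrophage classes.

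Irf8, Spi1 and Runx1, the factors of the wider myeloid lineage, stood near their microglial levels in Apoe-high cells. Irf8 stood at 317 and 326 CPM in Apoe-high cells, at 223 and 202 CPM in border macrophages and at 380.3 and 346 CPM in microglia of the Hevin libraries. It was not called between Apoe-high cells and microglia (log2 fold change -0.07 ± 0.06, adjusted p = 0.323) and was 1.76-fold higher in Apoe-high cells than in border macrophages (0.82 ± 0.06, adjusted p = 8.3e-09). Spi1 stood at 370.3 and 334 CPM in Apoe-high cells, at 307 and 296 CPM in border macrophages and at 365 and 326 CPM in microglia, with 312 and 303 CPM in monocyte-gated cells. It was not called between Apoe-high cells and microglia (0.13 ± 0.06, adjusted p = 0.0826) and was higher in Apoe-high cells than in border macrophages (0.44 ± 0.06, adjusted p = 1.39e-05). Runx1 stood at 152 and 171 CPM in Apoe-high cells, at 239 and 245 CPM in border macrophages and at 156 and 192 CPM in microglia, and its replicates of Apoe-high cells and microglia overlapped (-0.00 ± 0.06, adjusted p = 0.982). It was lower in Apoe-high cells than in border macrophages (-0.37 ± 0.07, adjusted p = 0.000273). Endothelial-gated cells of these libraries held 63.0 and 38.0 CPM of Irf8, 55.2 and 25.3 of Spi1 and 23.4 and 19.9 of Runx1, so the myeloid values of these factors lay well above the endothelial ones. Alternatives called Irf8 lower in Apoe-high cells than in microglia when scaled by total counts only (-0.18, adjusted p = 0.0243) and Spi1 higher with looser gates (0.16, adjusted p = 0.0128).

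Border macrophages and microglia differed in all 8 factors over the 4 libraries, in a comparison in which 55.6% of 15339 genes were called, 26.7% higher and 28.9% lower. The 2 higher in border macrophages were Maf, given above, and Runx1, which was 1.18-fold higher (log2 fold change 0.24 ± 0.06, adjusted p = 0.00697). The 6 lower ones were Sall3 (-3.43 ± 0.20, adjusted p = 7.41e-08), Sall1 (-3.08 ± 0.15, adjusted p = 1.97e-08), Irf8 (-0.97 ± 0.05, adjusted p = 2.47e-08), Mef2a (-0.87 ± 0.08, adjusted p = 2.1e-06), Spi1 (-0.42 ± 0.05, adjusted p = 3.3e-05) and Mef2c (-0.30 ± 0.06, adjusted p = 0.000972). All 8 calls held under the 13 alternatives tried, leaving out each library included. Over all genes called, 4095 were higher and 4432 lower in border macrophages, and 5498 and 3194 when scaled by total counts only, which moved the median of all genes by 0.132 on the log2 scale. Apoe-high cells thus had Sall levels near those of border macrophages, an Irf8 level nearer to that of microglia, and a Maf level between the levels of both.

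**Figure D2:**
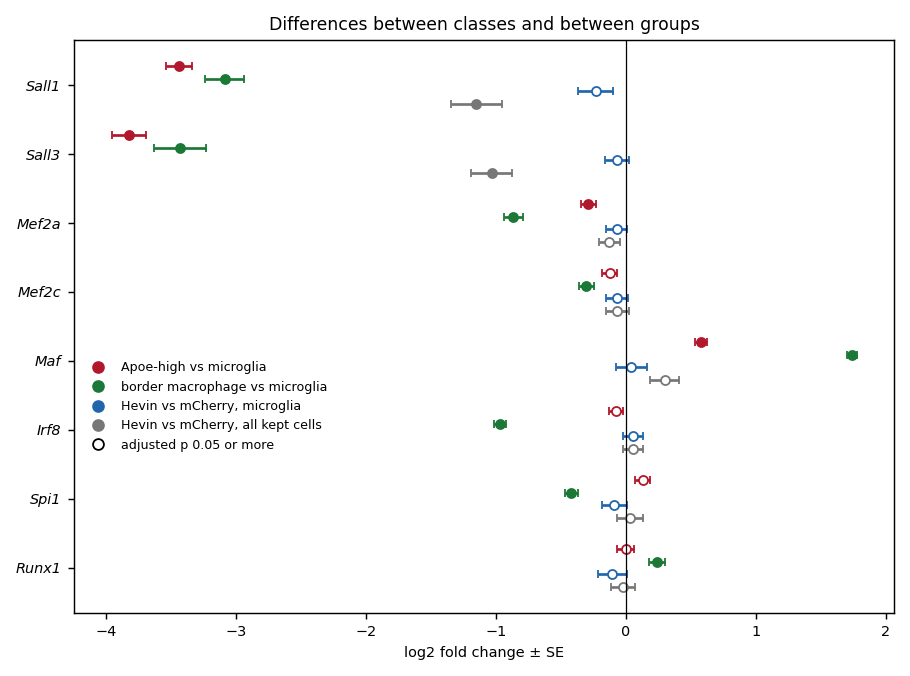
Log2 fold change ± SE (horizontal axis) of each factor in 4 comparisons; filled points have an adjusted p below 0.05 and open points do not. Sall1 and Sall3 lie below -3 and Maf above 0.5 in both class comparisons, and no factor is called between Hevin and mCherry microglia.

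Joint cells, which passed the microglial gate at a high Apoe share, had less Sall1 and Sall3 and more Maf than microglia in the Hevin libraries, where nearly all of them were found. Sall1 stood at 52.3 and 83.4 CPM in joint cells and at 227 and 292 CPM in microglia of the Hevin libraries (log2 fold change -1.98 ± 0.12, adjusted p = 2.94e-09), and Sall3 at 14.1 and 23.7 CPM and at 71.9 and 85.8 CPM (-2.12 ± 0.19, adjusted p = 3.74e-07). Maf stood at 1291 and 1453 CPM in joint cells and at 827 and 964 CPM in microglia (0.57 ± 0.05, adjusted p = 5.86e-08), above the Apoe-high values in both libraries. The 30 joint cells of mCherry replicate 1 held 122 CPM of Sall1, 18.8 CPM of Sall3 and 687 CPM of Maf, against 295, 85.1 and 829 CPM in its microglia, so there Maf was the lower in joint cells, in 73 UMIs. Runx1 was called higher (0.25 ± 0.07, adjusted p = 0.0271), a call lost in 6 of 10 alternatives, where the log2 fold change stood between 0.15 and 0.25. Mef2a (-0.01 ± 0.06, adjusted p = 0.929), Mef2c (0.11 ± 0.06, adjusted p = 0.257), Irf8 (-0.07 ± 0.06, adjusted p = 0.534) and Spi1 (-0.08 ± 0.06, adjusted p = 0.448) were not called, and 18.7% of 14832 genes were, 9.43% higher and 9.27% lower. The number of genes called was 2774, and it was 733 with stricter gates and 1695 with at least 3000 UMIs per cell.

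A droplet that holds a microglia and an Apoe-high cell can pass both gates, and doublet scores were higher in joint cells. The part of doublets in the values of joint cells was not tested. Of the joint cells 20.1% and 31.7% were among the 5% of cells with the highest score of their Hevin library, against 3.58% and 2.63% of Apoe-high cells and 3.05% and 4.24% of microglia. The joint cells with such scores held 93.9 and 146 CPM of Sall1 at median depths of 3422 and 5146 UMIs, while the other joint cells held 32.8 and 35.0 CPM at 1846 and 3010 UMIs. Outside the top scores, Apoe-high cells held 21 and 20.2 CPM of Sall1 and microglia 230.4 and 295 CPM, so joint cells with lower scores lay close to Apoe-high cells. The log2 fold changes of joint cells against microglia were larger when the top scores were left out, at -3.02, adjusted p = 2.29e-12 for Sall1, -3.33, adjusted p = 2.42e-09 for Sall3 and 0.66, adjusted p = 6.06e-09 for Maf. P2ry12 differed less: the joint cells with lower scores held 2205 and 2137 CPM, the Apoe-high cells 875 and 898 CPM and the microglia 4299 and 4779 CPM, but the gate of joint cells holds P2ry12, so that their level of it was fixed by the choice.

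Between the groups, Sall1 and Sall3 were lower over all kept cells of the Hevin libraries, and no factor was called within microglia. Over all kept cells Sall1 stood at 86.5 and 137 CPM in Hevin libraries and at 252 and 286 CPM in mCherry libraries (log2 fold change -1.15 ± 0.20, adjusted p = 0.0132), and Sall3 at 26.8 and 39.6 CPM and at 73.3 and 73.6 CPM (-1.03 ± 0.16, adjusted p = 0.00908). In both genes the groups did not overlap, which 2 against 2 libraries allow in an exact two-sided permutation test with a p of 0.333 at the smallest. Of 19119 genes 11.1% were called here, and of the 8 factors 0 were higher and 2 lower. These sums mix classes, so fewer microglia and less RNA per microglia cannot be told apart in them. Without the Apoe-high and joint cells, an alternative added after the data were seen, the log2 fold change was -0.57, adjusted p = 0.214 for Sall1 and -0.42, adjusted p = 0.22 for Sall3, so neither call remained, and 269 genes were called, against 2131 with these cells. With at least 3000 UMIs per cell Sall1 lost its call as well (-1.31, adjusted p = 0.0503). The remaining factors were not called, though Maf was with the replicate number as a block (0.30, adjusted p = 0.0237). Maf stood at 1141 and 1271 CPM in Hevin libraries and at 983 and 1144 CPM in mCherry libraries (0.30 ± 0.11, adjusted p = 0.163), Mef2a at 483 and 498 CPM and at 578 and 582 CPM (-0.13 ± 0.08, adjusted p = 0.427), and the log2 fold changes of Mef2c, Irf8, Spi1 and Runx1 lay between -0.07 and 0.05. The split of all called genes, 1309 higher and 822 lower, turned to 935 and 1466 when scaled by total counts only, which moved the median of all genes by -0.115.

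Among microglia-gated cells, Sall1 stood at 227 and 292 CPM in Hevin libraries and at 295 and 334 CPM in mCherry libraries (log2 fold change -0.23 ± 0.13, adjusted p = 0.97). Hevin replicate 1 was the lowest library and the values of Hevin replicate 2 and mCherry replicate 1 were nearly equal. The groups did not overlap, and the step between their means was smaller than that between the Hevin replicates and larger than that between the mCherry replicates. Sall3 stood at 71.9 and 85.8 CPM in Hevin and at 85.1 and 86.0 CPM in mCherry microglia (-0.07 ± 0.09, adjusted p = 0.996), and Maf at 827 and 964 CPM and at 829 and 968 CPM (0.04 ± 0.12, adjusted p = 0.999). Both Maf replicates numbered 1 were low and both numbered 2 were high, in Hevin as in mCherry. Mef2a (-0.07 ± 0.08), Mef2c (-0.07 ± 0.08), Irf8 (0.05 ± 0.08), Spi1 (-0.09 ± 0.09) and Runx1 (-0.10 ± 0.11) had log2 fold changes within 0.11 of 0, each with an adjusted p of 0.996. No gene of 17104 was called by edgeR here (0%), while 1006 had an unadjusted p below 0.05 and DESeq2 called 156. Leaving out a library gave 82 calls without mCherry replicate 1, 28 without mCherry replicate 2, 12 without Hevin replicate 1 and 54 without Hevin replicate 2, and none of the 8 factors was among the calls under any of the 15 alternatives. Depth and replicates therefore allow no statement that the factors are equal in microglia of both groups, only that no difference passed the test.

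Among border-macrophage-gated cells 0.835% of 12340 genes were called, 0.494% higher and 0.34% lower, and Sall1 was among them. It stood at 26.3 and 23.2 CPM in Hevin libraries and at 55.5 and 49.0 CPM in mCherry libraries (log2 fold change -1.04 ± 0.14, adjusted p = 0.00975), and the call held under all 14 alternatives. The level in cells that should lack the gene moved with it: endothelial-gated cells had lower Sall1 in Hevin than in mCherry libraries as well, with the values given above, and so had monocyte-gated cells. After thinning, 2.44% and 2.50% of border macrophages of the Hevin libraries and 5.76% and 5.39% of those of the mCherry libraries had a Sall1 UMI, beside 1.04% and 1.32% of endothelial-gated cells of Hevin libraries and 4.93% and 7.18% of those of mCherry libraries. The exact 95% intervals of the endothelial shares, given above for Hevin libraries, were 2.79% to 8.01% and 3.88% to 12% in mCherry libraries and contain the border shares. By summed level, border macrophages held 1.68 and 1.92 times the endothelial Sall1 in Hevin libraries and 1.14 and 1.25 times in mCherry libraries, and the part of free RNA in the border values was not tested. P2ry12 also moved in the border class, with 723 and 653 CPM in Hevin libraries and 1128 and 927 CPM in mCherry libraries. Sall3 stood at 7.11 and 2.55 CPM in Hevin and at 12.4 and 11.5 CPM in mCherry border macrophages (-1.27 ± 0.38, adjusted p = 0.267), a difference called in 3 of 14 alternatives, without Hevin replicate 1 (-2.17, adjusted p = 0.0113), with the replicate block (-1.27, adjusted p = 0.0485) and with no filter on low counts (-1.28, adjusted p = 0.00174). It was -0.70, adjusted p = 0.378 without Hevin replicate 2 and -0.14, adjusted p = 0.977 after thinning. Maf, the most border-directed of the 8, stood at 3087 and 3488 CPM and at 3218 and 3582 CPM (-0.00 ± 0.10, adjusted p = 0.998). Mef2a (0.25 ± 0.10, adjusted p = 0.444) and Irf8 (0.11 ± 0.09, adjusted p = 0.773) were not called, but both were with looser gates, Mef2a with a log2 fold change of 0.46, adjusted p = 0.0296, and Irf8 with 0.37, adjusted p = 0.0403. The number of genes called was 103, and 160 without mCherry replicate 1, 188 without mCherry replicate 2 and 280 without Hevin replicate 2.

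Whether the groups differed by another amount in border macrophages than in microglia was tested as an interaction, in which 0.391% of 15339 genes and none of the 8 factors were called. The difference, border macrophages minus microglia, was -0.81 ± 0.19, adjusted p = 0.176 for Sall1, -1.21 ± 0.36, adjusted p = 0.392 for Sall3 and 0.32 ± 0.11, adjusted p = 0.522 for Mef2a on the log2 scale. Sall1 was called in 4 of 13 alternatives: without mCherry replicate 2 (-0.99, adjusted p = 7.45e-05), with no filter on low counts (-0.79, adjusted p = 1.43e-05), with stricter gates (-0.88, adjusted p = 0.0274) and after thinning (-0.90, adjusted p = 0.0287). Without Hevin replicate 2 it was -0.52, adjusted p = 0.411. Sall3 was called in 3: without mCherry replicate 2 (-1.28, adjusted p = 0.00456), without Hevin replicate 1 (-2.25, adjusted p = 0.0494) and with no filter (-1.20, adjusted p = 0.000774). Without Hevin replicate 2 it was -0.49, adjusted p = 0.656, and after thinning -0.01, adjusted p = 0.999. Mef2a was called in 1, with looser gates (0.52, adjusted p = 0.0276). The remaining 5 factors had differences between -0.04 and 0.16.

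Cells were then set in bins of Apoe per 10000 UMIs, without regard to the microglial gate, leaving out cells past the border or endothelial gate. The bins ran from 0 to 50, to 100, to 150, to 250, to 400 and above. Sall1 and Sall3 dropped within a narrow range of Apoe, between the bins 50 to 100 and 150 to 250. The makeup of the Hevin bins changed over the same range. From 50 to 100, 2592 of 3081 and 733 of 833 cells of the Hevin libraries passed the microglial gate. From 100 to 150 these were 200 of 534 and 82 of 231, and from 150 to 250 180 of 1668 and 156 of 924. The part of this change of cells in the levels was not tested. For Sall1 in Hevin replicate 1 the levels from the lowest bin to the highest were 204, 197, 89.9, 31.0, 24.3 and 22.6 CPM, and in Hevin replicate 2 they were 281, 230.2, 85.4, 48.5, 25.1 and 19.6 CPM. For Sall3 they were 64.2, 65.9, 27.0, 11.3, 5.76 and 4.74 CPM in Hevin replicate 1 and 81.2, 76.8, 33.1, 15.1, 4.88 and 5.34 CPM in Hevin replicate 2. P2ry12, a gate gene given for comparison, fell over the same bins, with 3659.7, 3617, 1663, 989.6, 954 and 1073 CPM in Hevin replicate 1 and 4403, 3924, 1630.3, 1133, 987 and 1079 CPM in Hevin replicate 2. In the last bin it kept 29.3% and 24.5% of its first level, against 11.1% and 6.99% for Sall1 and 7.39% and 6.58% for Sall3. Maf went the other way, with 746, 758, 845, 1066, 1195 and 1233 CPM in Hevin replicate 1 and 912, 851, 876, 1181, 1329 and 1381 CPM in Hevin replicate 2. Spi1 showed no such step and stayed between 95.6% and 115% of its first level. Mef2a, Mef2c, Irf8 and Runx1 stayed between 61.3% and 107% of their level in the lowest bin, with their lowest values in the bins from 100 to 250. In the mCherry libraries few cells had a high share: the bins from 150 to 250 held 46 and 21 cells, against 1668 and 924 in Hevin libraries. In those cells Sall1 stood at 103 and 155 CPM in mCherry libraries, against 31.0 and 48.5 CPM in Hevin libraries, and was lower than in the mCherry bins below. In both mCherry libraries Maf stood below its first level from 50 to 250, with 812, 588, 520.1, 644 and 905 CPM over the 5 bins of at least 20 cells in mCherry replicate 1 and 947, 684, 636 and 521 CPM over the 4 in mCherry replicate 2. Other factors were lower there too: in the bin from 150 to 250 Mef2a stood at 50.9% and 29.0% of its first level in mCherry libraries, Mef2c at 49.1% and 27.9%, Spi1 at 65.6% and 54.1% and Maf at 79.3% and 55.0%, while Sall3 in the bin from 100 to 150 stood at 118% and 45.2%. The mCherry bins also held cells past the astrocyte gate. Of the 95 and 42 cells from 100 to 150, 63 and 28 passed the microglial gate and 19 and 5 the astrocyte gate, and of the 46 and 21 cells from 150 to 250, 19 and 9 passed the microglial gate and 14 and 7 the astrocyte gate. In the Hevin bin from 150 to 250, 20 and 10 of 1668 and 924 cells passed the astrocyte gate, and the part of such cells in the values was not tested. These are descriptions of pooled cells, and bins of 1 library share its free RNA.

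**Figure D3:**
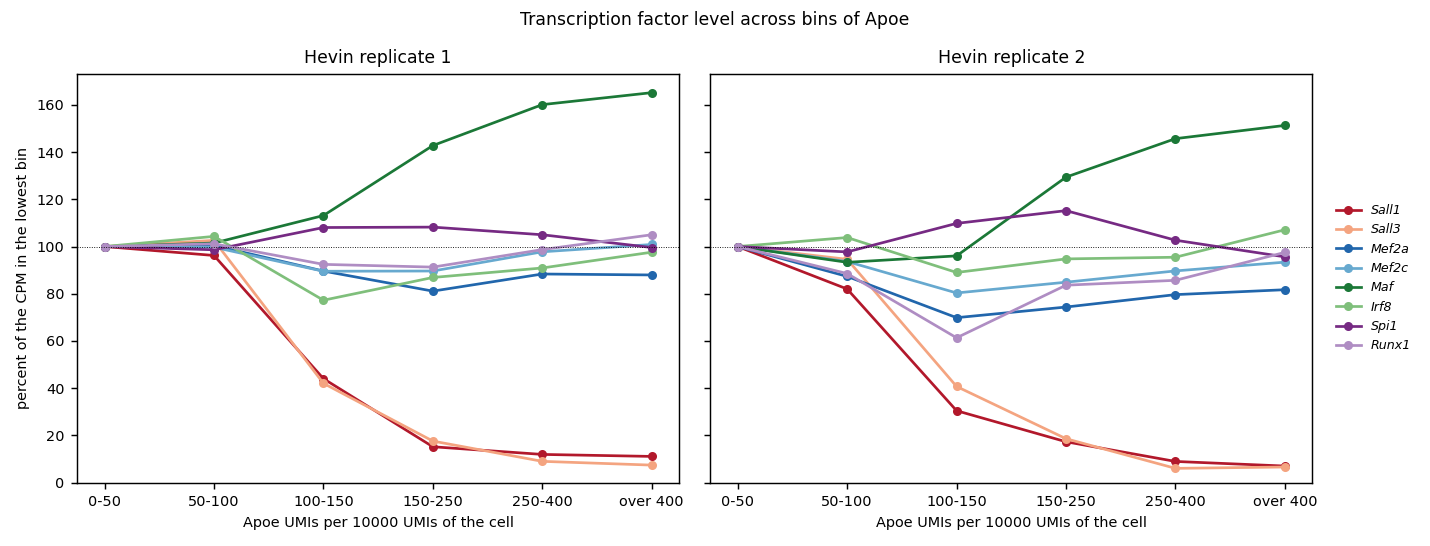
Level of each factor as a percent of its CPM in the lowest bin (vertical axis) across bins of Apoe UMIs per 10000 UMIs of the cell (horizontal axis), in each Hevin library. Sall1 and Sall3 fall below 20% from the fourth bin on, Maf reaches 165% and 151% in the last bin, and the other 5 stay nearer to 100%.

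Within microglia the factors were also read by state. Dividing microglia, gated on Mki67, Top2a and 5 other genes of mitosis, numbered 66 and 34 in Hevin libraries and 103 and 55 in mCherry libraries. Their Mef2a stood at 330.1 and 378 CPM in Hevin libraries and at 456 and 396 CPM in mCherry libraries, beside 574 and 610.0 CPM in Hevin and 639.6 and 645 CPM in mCherry microglia that were neither dividing nor in the interferon state. The level in dividing cells was lower in 4 of 4 libraries, as were those of Sall1, Sall3, Mef2c and Maf, while Irf8 and Spi1 were lower in 3 and Runx1 in 1. Sall1 stood at 178 and 206 CPM in dividing Hevin microglia, beside 227 and 293 CPM in the others, and at 260.2 and 224 CPM in dividing mCherry microglia, beside 295 and 335 CPM. Maf stood at 744 and 639 CPM in dividing Hevin microglia, beside 829 and 967 CPM, and at 642 and 725 CPM in dividing mCherry microglia, beside 831 and 969.7 CPM. Dividing Apoe-high cells, 69 and 46 in Hevin libraries, likewise held 292 and 369 CPM of Mef2a, against 454 and 450.4 CPM in those that were neither, and 649 and 738 CPM of Maf, against 1188 and 1321. Cells in the interferon state, gated on Ifit1, Isg15 and 5 other interferon-induced genes, numbered 74 and 38 among Apoe-high cells of the Hevin libraries, whose Irf8 was 381 and 326 CPM, beside 316 and 326 CPM in the rest. Of the microglia, 1 library had at least 20 such cells, mCherry replicate 1 with 23, where Irf8 stood at 581 CPM, beside 361 CPM. The state values rest on few cells and have no test.

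To place each factor among other genes, its log2(CPM + 1) was correlated with that of 7529 genes over 26 sums of class and library, gate genes left out. The sums of 1 library share its depth and free RNA, so these correlations describe likeness of pattern and carry no p. Nearest to Sall1 were Nav3 (r = 0.934), Asph (r = 0.93) and Atp8a2 (r = 0.918), and nearest to Sall3 Phgdh (r = 0.905), Arhgap5 (r = 0.903) and Thrsp (r = 0.902). Phgdh, which opens serine synthesis, is an enzyme of astrocytes, the other class with high Sall3. Mef2a was nearest to Elmo1 (r = 0.973), Lrch1 (r = 0.953) and Slc7a7 (r = 0.947), and Mef2c to Fcgr1 (r = 0.971), Serinc3 (r = 0.966) and Tlr7 (r = 0.964). Maf was nearest to P2rx7 (r = 0.972) and Snx6 (r = 0.95), Irf8 to Ly86 (r = 0.979), Cd14 (r = 0.978) and Otulinl (r = 0.976), Spi1 to Fcer1g (r = 0.985), Lcp2 (r = 0.984) and Lst1 (r = 0.98), and Runx1 to Marchf1 (r = 0.989), Lcp2 (r = 0.977) and Pik3cd (r = 0.977). Fcer1g, the signalling chain of Fc receptors, Fcgr1, a receptor for IgG, and Lcp2, an adaptor of immune receptors, are general myeloid genes. Among the 8 factors themselves, r was 0.859 for Sall1 and Sall3, and no more than 0.416 between either of these and any other factor. The other 6 had r between 0.686 for Maf and Runx1 and 0.963 for Spi1 and Runx1, among them 0.924 for Mef2a and Mef2c and 0.918 for Irf8 and Mef2c. The sums include endothelial- and astrocyte-gated cells, in which all 6 were low. Median Irf8 was 52.9 and 66.5 CPM there and 361 CPM in microglia. So a high r does not mean likeness among macrophages. Maf and Irf8 had r = 0.781, yet from microglia to border macrophages their log2 fold changes were 1.74 and -0.97.

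Relatives of the 8 factors were read from a list of 21 genes of the SALL, MEF2, MAF, IRF, ETS and RUNX families and the RUNX partner Cbfb. Of 18 tested between Apoe-high cells and microglia, 7 were higher, 4 lower and 7 not called, with a median log2 fold change of 0.25, beside 0.01 over all genes and 39.5% of genes called. Runx3, a RUNX factor of cytotoxic lymphocytes and of some macrophages, stood at 44.8 and 40.4 CPM in Apoe-high cells, at 18.6 and 12 CPM in border macrophages and at 6.50 and 2.96 CPM in microglia of the Hevin libraries, against 0.346 and 0.123 CPM in mCherry microglia. Its log2 fold change was 3.32 ± 0.14, adjusted p = 5.11e-12 between Apoe-high cells and microglia, while its relative Runx1 was not called there. Irf7, the master factor of type I interferon induction, was higher as well (1.78 ± 0.11, adjusted p = 7.75e-10), with 22.1 and 25.2 CPM in Apoe-high cells and 6.43 and 8.37 CPM in microglia, and so was Irf9, which carries interferon signals to the nucleus (0.61 ± 0.07, adjusted p = 7.1e-07). The lower ones with a mean of at least 10 CPM moved little, among them Mef2d (-0.22 ± 0.07, adjusted p = 0.0142) and Irf5 (-0.18 ± 0.06, adjusted p = 0.0221), an interferon regulatory factor of myeloid cells. Spic, a relative of Spi1 known from splenic macrophages, is named here after its value was seen, since its mean of 5.10 CPM is below that minimum: its log2 fold change in Apoe-high cells against microglia was 3.83 ± 0.29 (adjusted p = 8.8e-09).

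A second list held 55 other transcription factors of myeloid cells. Of 54 tested between Apoe-high cells and microglia, 24 were higher, 13 lower and 17 not called (median log2 fold change 0.07), beside 21% of all genes higher and 18.5% lower. The named ones with the largest rise were the aryl hydrocarbon receptor Ahr (3.55 ± 0.14, adjusted p = 1.57e-12), the GATA-type repressor Trps1 (3.22 ± 0.12, adjusted p = 9.93e-13) and Tfec (2.00 ± 0.10, adjusted p = 2.5e-11), a MITF relative of macrophages. Ahr stood at 31.2 and 39.6 CPM in Apoe-high cells, at 34.3 and 29.4 CPM in border macrophages and at 3.53 and 3.01 CPM in microglia of the Hevin libraries, and Trps1 at 222 and 278 CPM in Apoe-high cells, 265 and 272 CPM in border macrophages and 33.1 and 24.5 CPM in microglia. The largest falls among named factors were in Ets1 (-1.40 ± 0.07, adjusted p = 3.48e-11), Hhex (-0.99 ± 0.08, adjusted p = 2.22e-08) and Klf4 (-0.83 ± 0.10, adjusted p = 3.78e-06). Ets1, an ETS factor, stood at 27.8 and 28.7 CPM in Apoe-high cells and at 73.5 and 86.9 CPM in microglia. Rbpj, the nuclear effector of Notch, set border macrophages apart from both: it stood at 141 and 151 CPM in Apoe-high cells, 1869 and 2808 CPM in border macrophages and 83.8 and 82.0 CPM in microglia, with a log2 fold change of -3.77 ± 0.11, adjusted p = 1.06e-13 between Apoe-high cells and border macrophages. Klf4 (-3.42 ± 0.10, adjusted p = 7.82e-14) and Klf2 (-2.32 ± 0.14, adjusted p = 4.16e-10) were also lower in Apoe-high cells than in border macrophages. Smad7, an inhibitor of TGF-beta signalling, was higher (1.64 ± 0.15, adjusted p = 1.45e-07), with 24.5 and 26.9 CPM in Apoe-high cells and 8.10 and 11.1 CPM in border macrophages.

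**Figure D4:**
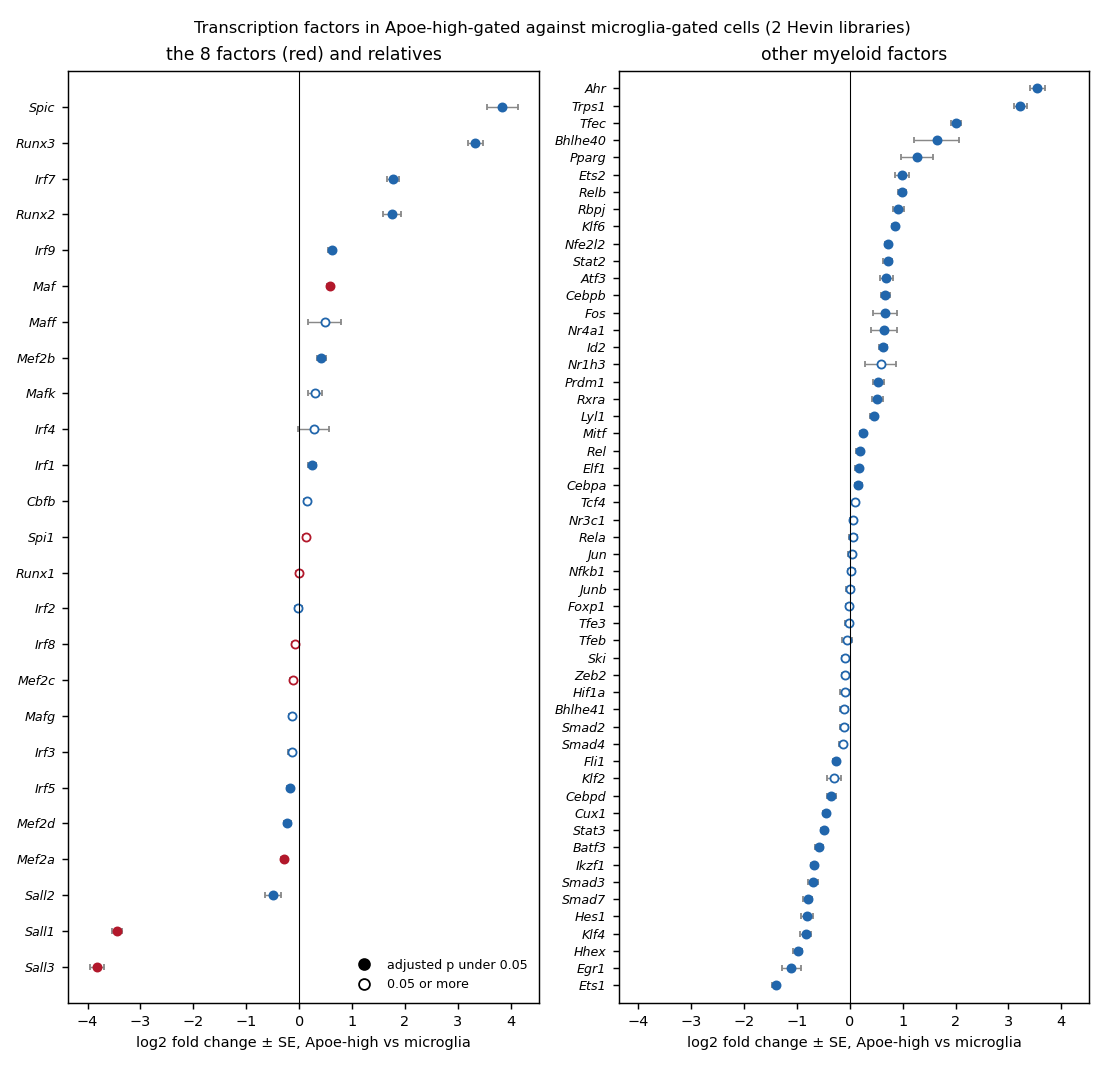
Log2 fold change ± SE (horizontal axis) between Apoe-high-gated and microglia-gated cells of the Hevin libraries for the 8 factors (red), 17 relatives (blue, left) and 53 other myeloid factors (right), in order of size; open points are not called. Sall1 and Sall3 lie lowest of all, and Spic, Runx3, Ahr and Trps1 lie above 3.

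Between the groups over all kept cells, 5 of 18 tested relatives were higher in Hevin libraries, 0 lower and 13 not called, and of the other 55 factors 12 were higher, 6 lower and 37 not called, beside 6.85% of all genes higher and 4.3% lower. Runx3 stood at 28.8 and 20.6 CPM in Hevin libraries and at 0.931 and 0.705 CPM in mCherry libraries (5.02 ± 0.23, adjusted p = 8.51e-05), Ahr at 21.4 and 21.2 CPM and at 4.03 and 3.30 CPM (2.65 ± 0.13, adjusted p = 9.19e-05) and Trps1 at 166 and 165 CPM and at 38.1 and 39.7 CPM (2.21 ± 0.07, adjusted p = 1.98e-05). Ets1 was lower, at 49.8 and 59.6 CPM in Hevin libraries and 98.4 and 103 CPM in mCherry libraries (-0.76 ± 0.09, adjusted p = 0.00352), as were Smad3 (-0.56 ± 0.12, adjusted p = 0.0251), which carries TGF-beta signals, and Hhex (-0.55 ± 0.07, adjusted p = 0.00349). These sums include the Apoe-high cells, in which the first 3 were higher than in microglia. In microglia none of the 18 relatives and none of the 54 other factors tested was called. In border macrophages 2 of 17 relatives were called, both higher, and 0 of 52 other factors, beside 0.494% of all genes higher and 0.34% lower.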

How the data were processed

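Whole-number UMI counts of each gene in each barcode were deposited by the authors for 4 libraries of 49781430 to 67832685 UMIs. Genome build mm10 was used, per the submitters' processing notes, while aligner, annotation and cell calling are not stated. Depth limits each value through counting error and through the gates, which are set on the UMIs of single cells. Thinning kept the classes that were set at full depth. Cells share their library, so libraries are the replicates.

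Cells with at least 500 UMIs, 300 genes and at most 10% mitochondrial UMIs were kept (202 and 41 removed from the Hevin libraries, 44 and 28 from the mCherry libraries), and each was placed in at most 1 gated class. Gates were 40 UMIs per 10000 for the microglial list, 30 for the border, endothelial (Cldn5, Flt1 and others) and astrocyte lists, 10 for the monocyte list and 150 for Apoe. Doublets were not removed: Scrublet in scanpy 1.11.5 called 285 and 275 cells of the Hevin libraries but 2 and 2 of the mCherry libraries, so it had not worked there, and scores served as an alternative only. Counts were summed per library and class of at least 20 cells and tested with edgeR 4.0.16 (quasi-likelihood, TMM scaling, filterByExpr, Benjamini-Hochberg adjustment over all genes tested, called below 0.05), with the library as a block where classes of 1 library were compared; ± is the standard error of a log2 fold change. Class comparisons in the Hevin libraries shared 1 fit of 4 classes, and 2 libraries stand behind them. The procedure was also run on simulated counts with the same spread for all genes. Their sums differed only in depth and in planted changes, unlike these data, so no support is drawn from that run. Alternatives were DESeq2 1.42.0, scaling by total counts only, other filters, gates and depths, and leaving out each library. Promoters come from RefSeq on GRCm38.p6 and gene coordinates from GENCODE M21.

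The 8 factors, the 21 relatives and the 55 other factors were chosen with earlier results of these data known. Of the 2 lists the text names the genes called with the largest rise and fall, up to 3 each way per comparison, that have a mean of at least 10 CPM; Rbpj, Klf2 and Smad7 follow this rule in other comparisons, and Spic does not. Some genes that the rule or the correlations would name are not reported here, though they stay in the counts. Shares of cells carry exact (Clopper-Pearson) 95% intervals, which cover counting error only.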

Additional observations from a re-analysis of the deposited data

Results flagged for a closer look

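For a transcription factor outside the 8, the aryl hydrocarbon receptor Ahr, the difference between the groups was not the same in the 2 macrophage classes. Its Hevin-against-mCherry log2 fold change was lower in border macrophages than in microglia by a difference of -2.13 (SE 0.27, edgeR quasi-likelihood interaction, adjusted p = 0.00847). In border macrophages Ahr stood at 34.3 and 29.4 CPM in Hevin libraries and 31.3 and 29.3 CPM in mCherry libraries, and in microglia at 3.53 and 3.01 CPM in Hevin libraries and 0.82 and 0.568 CPM in mCherry libraries. The microglial values all lie far below those of border macrophages. They also lie below those of endothelial-gated cells, which held 8.44 and 8.45 CPM in Hevin libraries and 5.10 and 1.40 CPM in mCherry libraries.

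Trps1, a GATA-type repressor, differed in the same sense, by -1.06 (SE 0.15, adjusted p = 0.0173). It stood at 265 and 272 CPM in Hevin libraries and 190.0 and 232 CPM in mCherry libraries in border macrophages, and at 33.1 and 24.5 CPM in Hevin libraries and 10.9 and 10.4 CPM in mCherry libraries in microglia. Apoe-high cells of the Hevin libraries, which lie next to the microglial gate, carried 31.2 and 39.6 CPM of Ahr and 222 and 278 CPM of Trps1, and the part of such cells or of their free RNA in the microglial values was not tested. Endothelial-gated cells held 70.1 and 48.3 CPM of Trps1 in Hevin libraries and 47.8 and 50.3 CPM in mCherry libraries, above the microglial values. Neither gene was called in microglia alone.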

How the results depend on the processing

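Of 784 values of the 8 factors under alternative settings, 706 kept their direction and their side of the threshold, 45 turned sign, 22 gained a call and 11 lost one. The values that turned sign were not called in the reported comparison, and the cause was not tested. The number of genes called moved more. Over all kept cells 2131 became 4533 with the replicate block, 1323 with at least 3000 UMIs per cell and 269 without Apoe-high and joint cells (chosen after seeing the data). In microglia, where 0 were called, DESeq2 called 156, scaling by total counts only 6, no filter on low counts 334, the replicate block 426, a stricter cell filter 15, at least 3000 UMIs 16, stricter gates 12, no limit on Apoe 137, thinning 30, and leaving out a library 12 to 82. In border macrophages 103 became 406 with no filter, 354 with the replicate block, 680 with looser and 42 with stricter gates, and 131 to 280 without a library. Apoe-high against microglia gave 3761 by DESeq2, against 5859, joint against microglia 1695 with at least 3000 UMIs and 733 with stricter gates, against 2774, and Apoe-high against border macrophages 3304 after thinning, against 5855. The interaction gave 239 with no filter, 32 with at least 3000 UMIs, 384 with looser gates, 125 after thinning and 19 to 127 without a library, against 60, where 19 is without Hevin replicate 1 and 127 without mCherry replicate 2.

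Log2 fold changes that turned sign were, over all kept cells, Irf8 -0.063 and Spi1 -0.087 scaled by total counts only, -0.083 and -0.13 without Apoe-high and joint cells, and -0.0071 and -0.046 after thinning, Runx1 0.031 after thinning, and over libraries left out Runx1 -0.11 to 0.066 and Spi1 -0.054 to 0.11. In microglia they were Maf -0.0043 by total counts, and over libraries left out Irf8 -0.014 to 0.13, Maf -0.071 to 0.16, Runx1 -0.26 to 0.038 and Sall3 -0.20 to 0.053. In border macrophages they were Spi1 -0.012 by total counts and -0.032 after thinning, Mef2c -0.020 and Maf 0.083 with at least 3000 UMIs, Maf 0.011 without top doublet scores, Mef2c -0.039, Maf 0.11 and Irf8 -0.051 with stricter gates, and over libraries left out Maf -0.085 to 0.088 and Mef2c -0.0034 to 0.13. For Apoe-high against microglia Runx1 was 0.019 with stricter gates and 0.080 after thinning. For joint against microglia Mef2a was 0.030 by total counts, 0.046 with stricter gates and 0.096 after thinning. For Apoe-high against border macrophages Sall1 was -0.15 by total counts, -0.042 without top doublet scores and -0.27 over 4 libraries, Sall3 -0.36 over 4 libraries and -0.17 after thinning, and Mef2c -0.15 by total counts and -0.029 with looser gates. In the interaction Irf8 was -0.11 with stricter gates and -0.0058 after thinning, Maf 0.036 with at least 3000 UMIs and 0.049 with stricter gates, and Mef2c -0.00053 to 0.27 over libraries left out.

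Same-numbered libraries of both groups deviated together (correlations 0.357, 0.444 and 0.280 over genes in all kept cells, microglia and border macrophages), but the labels tie the numbers to nothing and there are only 2 pairs, so the replicate block is an alternative. It called Maf over all kept cells (0.30, adjusted p = 0.0237) and Sall3 in border macrophages (-1.27, adjusted p = 0.0485) and changed no other call of the 8 factors. Leaving out 1 of 2 Hevin libraries gives the class comparisons no residual degrees of freedom and was not run. Depth limits the low Sall levels: in border macrophages Sall3 stood at no more than 12.4 CPM.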
